A study of Mus musculus with 8 samples.

Results

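In mouse embryonic stem cells, 91 of 20972 named genes rose with 4OHT and stood at about the same level after 2 h of MEK inhibition. They were chosen by measured values. A gene had to be at least 1 log2 unit (2-fold) above untreated cells after both 8 h and 10 h of 4OHT. Its level after the inhibitor had to lie within 0.3 log2 units (1.23-fold) of its level at 4OHT 10 h. Both conditions had to hold within replicate number 1 and within replicate number 2, with a signal well above background on every 4OHT array. The rises with 4OHT and the nearness of the inhibited cells to 4OHT 10 h are therefore descriptions, given without a test.

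The study hybridised RNA of 4 groups of cells to 8 single-colour Agilent arrays, 2 per group, all from cells kept in LIF, a cytokine that holds them undifferentiated, and in 250 nM PD173074, which blocks FGF receptors. One group had 250 nM 4OHT (4-hydroxytamoxifen) for 8 h and then 1 µM of the MEK inhibitor PD0325901 for 2 h, the others no drug beyond PD173074 (untreated), 4OHT for 8 h, or 4OHT for 10 h. 4OHT is commonly used to activate fusions with a mutated oestrogen receptor. The labels name no such protein and no cell line here, and leave unstated if 4OHT was still present while MEK was inhibited. Inhibited cells and 4OHT 10 h cells were collected at the same time after the start of 4OHT, so this pair compares levels with and without 2 h of the inhibitor at a like time. A gene lower with the inhibitor may have lost RNA or have stopped rising after 8 h. Levels below are log2 signals relative to the array's 75th percentile, given for replicate 1 and then replicate 2. A level belongs to its own probe and is not compared between genes.

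The kinase cascade from RAF through MEK to ERK carries growth factor signals to the nucleus, and in embryonic stem cells ERK activity drives exit from the undifferentiated state. ERK raises immediate early genes and its own feedback inhibitors directly, and many of their transcripts are short-lived. An array level is the balance of synthesis and decay: a level held for 2 h after MEK is blocked can come from continued synthesis or from a long-lived transcript, and these cannot be told apart here. In a culture, more RNA per cell and more cells of a kind cannot be told apart either.

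Of the 20972 genes, 13161 were well above background on both arrays of all 3 groups given 4OHT, and 588 of these met the rise conditions. The 91 members are 15.5% of the 588. In each of the 91, both untreated arrays lay below all 6 arrays of cells given 4OHT, which the rise conditions largely fix. The smallest such gap was 0.47 log2 units, in Nap1l2. Another 130 genes (22.1%) lay at least 1 log2 unit lower with the inhibitor than at 4OHT 10 h in both replicate numbers. The largest of these differences were in Gsx1, a homeobox factor, at -6.77 and -6.64, in Dusp6, an ERK phosphatase, at -5.94 and -5.76, and in Egr1, Myc, Gbx2 and Phlda1. In all, 460 of the 588 were not members and lay below 4OHT 10 h in both replicate numbers, the 130 among them, 20 lay above in both and 17 differed in sign. Staying within 0.3 was common in the array as a whole: 8191 of the 13161 genes (62.2%) did, whatever 4OHT had done to them.

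**Figure D1:**
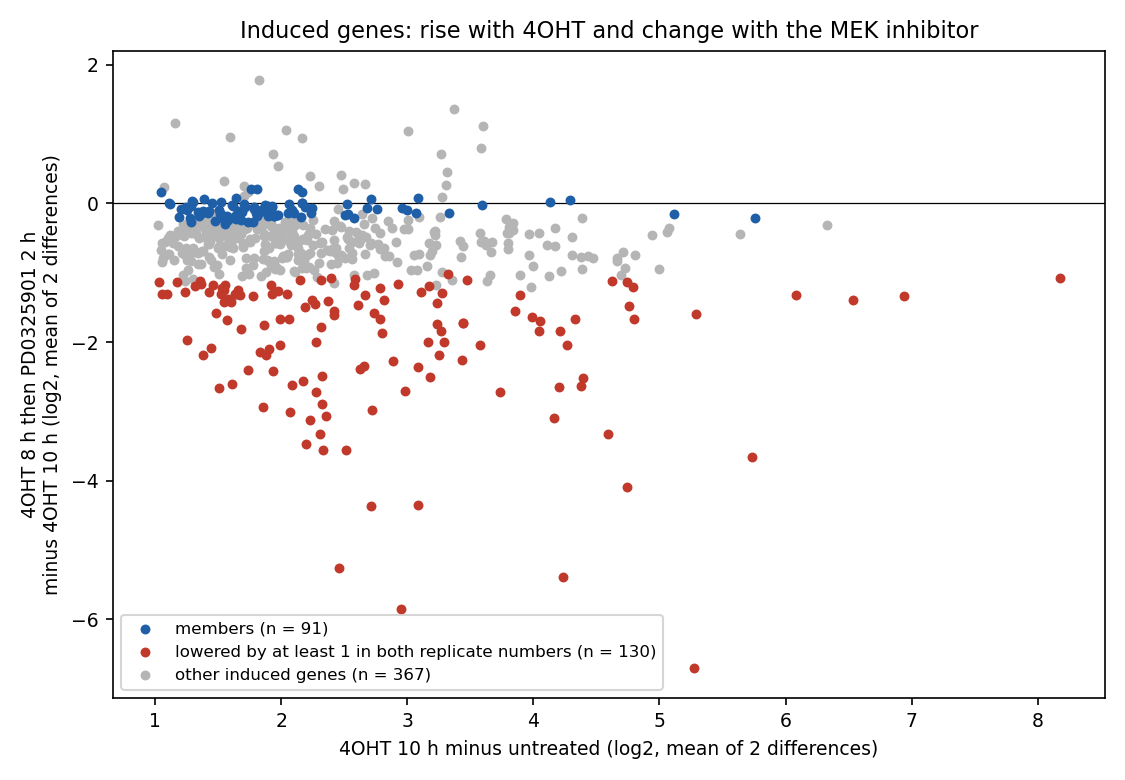
Each point is 1 of the 588 induced genes, with the rise at 4OHT 10 h over untreated cells (horizontal, log2) against the level with the inhibitor minus 4OHT 10 h (vertical, log2), both means over 2 replicate numbers. The 91 members form the band around 0, the 130 lowered genes lie at or below -1, and the other 367 lie mostly between them.

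The embryonic stem cell label was met by the 15 defining markers, all above background on all 8 arrays. Of 20 fibroblast markers, which feeder cells would bring, 11 were above background on all arrays, and Lum and Twist2 on none. Their summed linear signal, as a multiple of the 75th percentile, was 43.6 and 33.2 after the inhibitor, 28.5 and 34.1 untreated, 55.4 and 39.3 at 8 h, and 58.9 and 38.9 at 10 h. Without Thy1 and the member S100a4, the markers that met the rise conditions, it was 17.7 and 18.9 after the inhibitor, 25.2 and 32.3 untreated, 17.8 and 21.3 at 8 h, and 17.1 and 19.1 at 10 h. The summed level of the fibroblast markers other than these was lower on all 6 arrays of cells given 4OHT than on both untreated arrays. That sum was mostly Fstl1, at log2 levels of 3.81 and 3.96 after the inhibitor and 4.34 and 4.73 untreated. Single markers differed in direction. Col5a1 was higher after the inhibitor (-0.59 and -0.47) than untreated (-0.71 and -0.82), and Fbln2 lower (-3.15 and -2.93 against -1.69 and -2.07). More spots were well above background in replicate 1 (36889 to 37789 of 59305 on each array) than in replicate 2 (30218 to 31433).

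The members' median rise was 1.61 at 8 h and 1.80 at 10 h of 4OHT, and 1.71 after the inhibitor, as log2 differences from untreated cells. At 10 h this is 3.48-fold, or 3.28-fold with the 9 genes that no untreated array showed above background taken at their lower bound. Of the 91 genes, 17 were at least 4-fold up in both replicate numbers at both times. With the inhibitor the median lay 0.10 below 4OHT 10 h (log2 difference -0.10). Inside the allowed band 57 members lay below 4OHT 10 h in both replicate numbers, 7 lay above in both (Coch, Ecm1, Wnt10a, Aadac, Iqsec1, Sema3e and Nap1l2) and 27 differed in sign. The shares below and above in both were 62.6% and 7.69% for the members, 87.9% and 4.59% for all 588 induced genes, and 44.6% and 31.8% for all 13161 genes. Scaling bears on these signs: with arrays centred on their median, the difference between inhibited cells and 4OHT 10 h moved by -0.15 in replicate 1 and by -0.0046 in replicate 2, and 60 of the 91 still met the rule. With quantile normalisation 84 did, after normexp background correction 44 did, and 27 met the rule under all 3.

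The largest rises were in genes near or below background before 4OHT. Slc35f1, a member of the SLC35 family of transporter-like proteins, stood at -0.02 and 0.88 after the inhibitor, and without it -5.52 and -4.71 in untreated cells, -0.40 and 0.70 at 8 h and 0.27 and 1.02 at 10 h. 10 h of 4OHT left Slc35f1 at least 44-fold higher. Loxl4, a lysyl oxidase-like enzyme of the kind that cross-links collagen and elastin, stood at -0.36 and -0.64 after the inhibitor, and without it -5.56 and -5.37 in untreated cells, -0.29 and -0.42 at 8 h and -0.32 and -0.38 at 10 h. It was at least 22.1-fold up at 10 h and at least 19.9-fold up with the inhibitor. Baalc, a lipid-anchored cytoplasmic protein best known as an expression marker in human leukaemia, stood at -1.56 and -1.06 after the inhibitor, and without it -5.88 and -5.42 in untreated cells, -2.58 and -2.0 at 8 h and -1.73 and -0.99 at 10 h. Its level was at least 11-fold up at 10 h and at least 11.3-fold with the inhibitor. None of these 3 genes was above background on an untreated array.

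**Figure D2:**
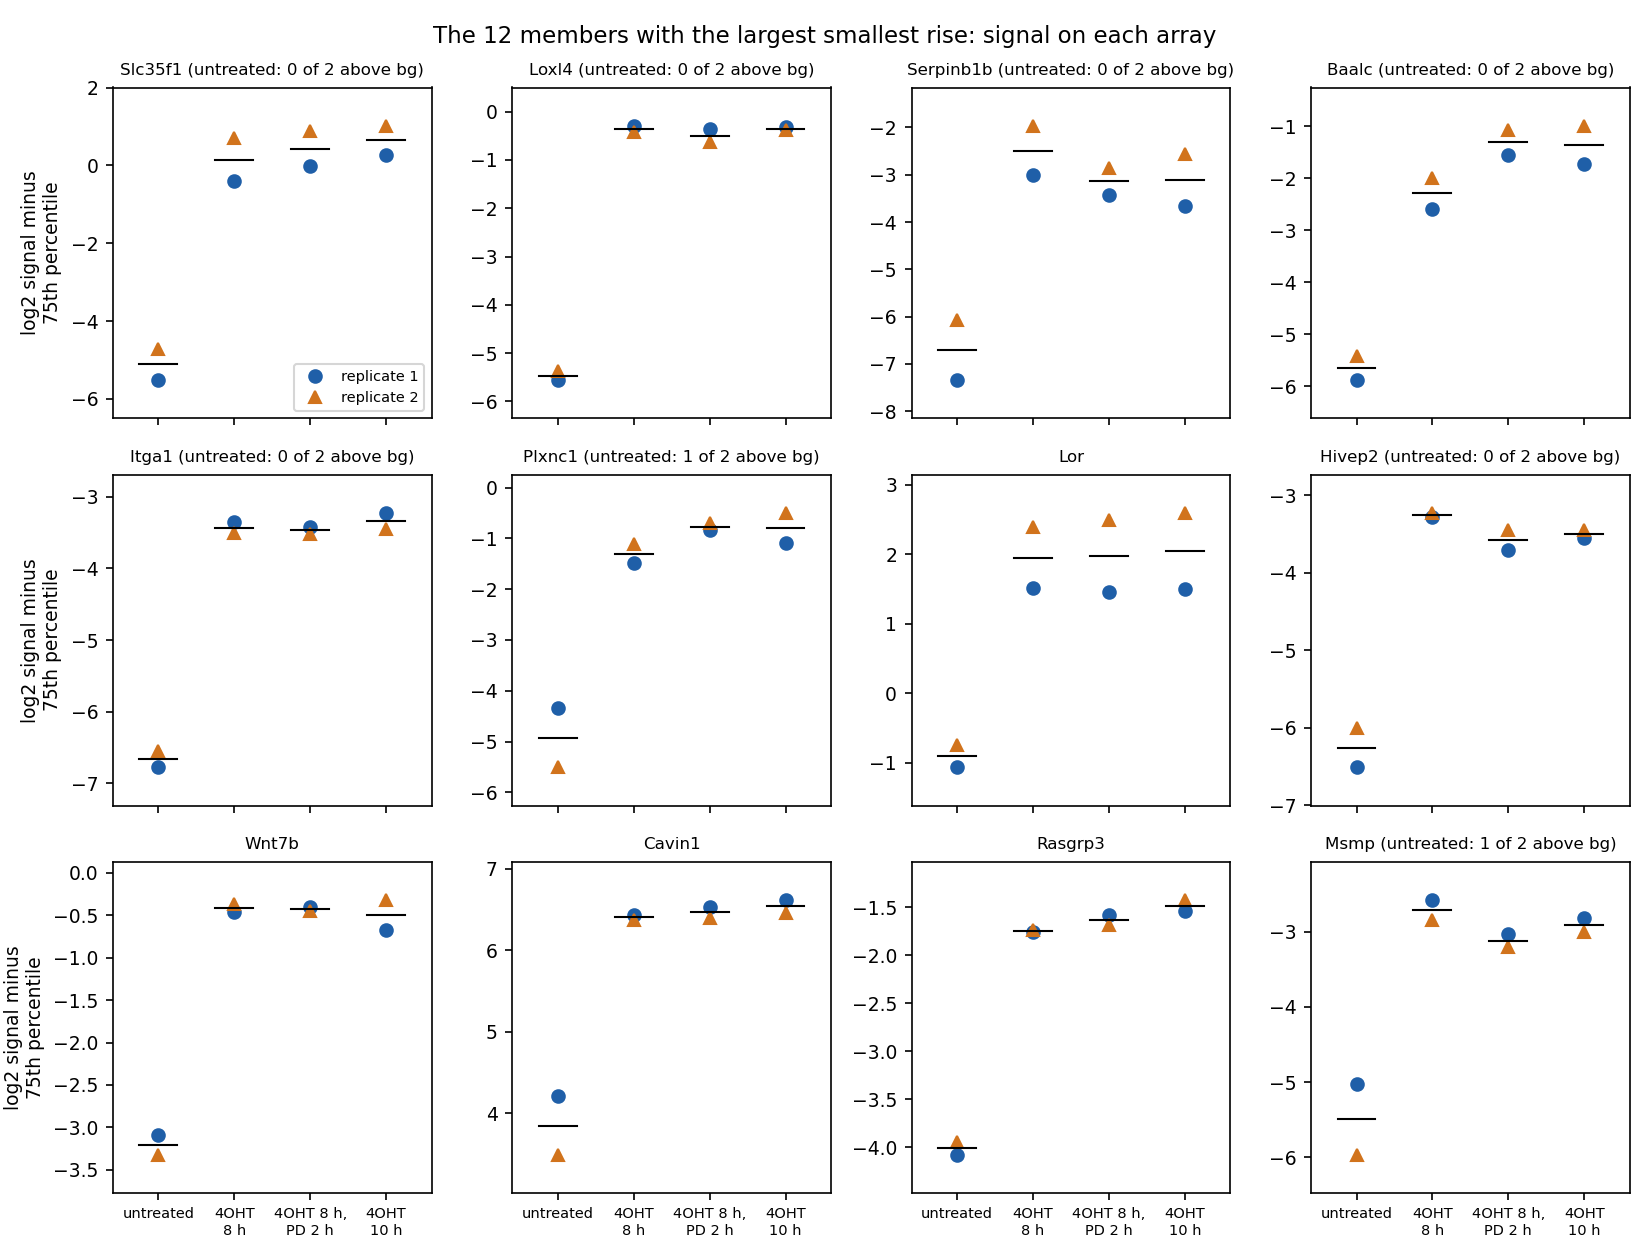
Log2 signal minus the array's 75th percentile on each of 8 arrays, for the 12 members whose smallest rise over both times and replicate numbers was largest. Points are single arrays, black bars are group means, PD is the MEK inhibitor PD0325901, and bg is background. In each panel the untreated arrays lie lowest and the inhibited arrays lie beside those of 4OHT 10 h.

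Promoter sequence is shown for 4 members that carry a motif of a transcription factor family whose genes are ERK-induced. AP-1, the dimer of FOS and JUN proteins, binds TGANTCA, and EGR proteins bind GCGNGGGCG. The sequences are from RefSeq on build GRCm38.p6, 250 bases before to 50 after the gene's start, written 5′ to 3′ on the gene's strand. They are Slc35f1 (the largest rise, chr10:52690251-52690550, plus strand), Lor (loricrin of the cornified envelope, chr3:92083093-92083392, minus strand), Ecm1 (extracellular matrix protein 1, chr3:95739520-95739819, minus strand) and Anxa2 (annexin A2, chr9:69453433-69453732, plus strand). Capitals mark the motif, an EGR site read on the opposite strand in Slc35f1 and an AP-1 site in the others.
Slc35f1: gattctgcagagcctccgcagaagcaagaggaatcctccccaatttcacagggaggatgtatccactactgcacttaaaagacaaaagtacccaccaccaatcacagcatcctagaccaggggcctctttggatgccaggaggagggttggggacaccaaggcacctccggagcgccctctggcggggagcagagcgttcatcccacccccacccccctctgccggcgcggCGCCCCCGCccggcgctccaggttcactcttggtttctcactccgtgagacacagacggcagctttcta
Lor: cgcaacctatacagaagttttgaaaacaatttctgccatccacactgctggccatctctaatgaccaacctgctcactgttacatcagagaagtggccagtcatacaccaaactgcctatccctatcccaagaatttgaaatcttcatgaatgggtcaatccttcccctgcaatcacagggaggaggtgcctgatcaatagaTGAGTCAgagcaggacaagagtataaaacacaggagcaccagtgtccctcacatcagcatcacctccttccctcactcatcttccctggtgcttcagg
Ecm1: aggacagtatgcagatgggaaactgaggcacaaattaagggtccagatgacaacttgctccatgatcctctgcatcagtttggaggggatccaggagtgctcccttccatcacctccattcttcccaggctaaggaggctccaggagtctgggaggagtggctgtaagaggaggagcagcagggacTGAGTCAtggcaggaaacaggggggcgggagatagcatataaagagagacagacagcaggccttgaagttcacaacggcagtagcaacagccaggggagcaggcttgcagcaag
Anxa2: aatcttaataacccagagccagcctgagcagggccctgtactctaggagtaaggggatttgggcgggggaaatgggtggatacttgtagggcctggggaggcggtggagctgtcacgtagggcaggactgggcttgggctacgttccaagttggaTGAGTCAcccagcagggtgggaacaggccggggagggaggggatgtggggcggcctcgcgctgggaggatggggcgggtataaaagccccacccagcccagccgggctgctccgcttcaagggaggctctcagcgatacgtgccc
The motif begins at -19 in Slc35f1, -48 in Lor, -64 in Ecm1 and -95 in Anxa2, counted from the gene's start.

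Motif shares were counted over all promoters of the members. Promoters were matched for 68 of the 91 genes (79 promoters) and for 87 of the 130 lowered genes (101 promoters), against 32851 promoters of all genes in the table. Both strands were searched. An AP-1 site was in 7 of the 79 (8.86%), in the genes Anxa2, Ecm1, Lor, Lmna, Entpd3, Irgm1 and Gm364. Its share was 4.95% for lowered genes, 9.38% for all 588 induced genes and 7.81% for all promoters. The EGR site was in 13.9% of member promoters, 9.90% of those of lowered genes, 12.6% of those of all 588 induced genes and 5.55% of all. The ETS core CCGGAA was in 17.7% of member promoters, 12.9% for lowered genes, 12.9% for induced genes and 14.9% of all promoters. The E-box CACGTG was in 7.59%, 11.9%, 7.43% and 7.15% in the same order. The cAMP response element TGACGTCA and the SRF CArG box were in 0 of the members' 79 promoters. Their shares were 5.94% and 3.96% for lowered genes, 1.59% and 1.24% for all 588 induced genes, and 1.79% and 1.63% for all promoters. Members and lowered genes had nearly the same median GC content (59% and 60%). An observed-to-expected CpG ratio of at least 0.6 was found in 32.9% of member promoters. The share was 53.5% for lowered genes, 47.8% for all 588 induced genes and 35.8% for all promoters. The windows overlap for some genes with several starts, and a match of letters is not a measured binding site.

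Cell adhesion and guidance proteins, receptors and ligands both, were 7 of the members. Cdh2, which encodes N-cadherin, stood at 2.23 and 2.51 after the inhibitor, and without it 0.29 and 0.76 in untreated cells, 1.68 and 2.15 at 8 h and 2.14 and 2.66 at 10 h. The 10 h mean was 3.65-fold the untreated one and the inhibited mean 3.59-fold, and the lowest array with 4OHT lay 0.91 log2 units above the higher untreated array. A second probe for Cdh2, which the rule did not use, rose by 1.79 and 1.93 at 10 h and lay 0.09 and 0.02 above 4OHT 10 h with the inhibitor. Itga8, an integrin chain that pairs with the beta1 chain, stood at 1.07 and 1.33 after the inhibitor, and without it -1.79 and -1.68 in untreated cells, 0.41 and 0.95 at 8 h and 1.18 and 1.49 at 10 h, with a gap of 2.09 log2 units between its untreated arrays and the lowest array with 4OHT. Itga1, another partner of beta1 that forms a collagen receptor, stood at -3.42 and -3.52 after the inhibitor, and without it -6.78 and -6.55 in untreated cells, -3.35 and -3.50 at 8 h and -3.22 and -3.44 at 10 h. Its untreated arrays were not above background, and the 10 h level was at least 2.79-fold higher.

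Itgb1, the beta1 chain itself, stood at 2.82 and 2.88 after the inhibitor, and without it 1.64 and 1.36 in untreated cells, 2.96 and 2.90 at 8 h and 3.12 and 3.05 at 10 h. It passed the 0.3 limit narrowly (-0.30 in replicate 1), and its second probe lay outside, at -0.43 and -0.32. Plxnc1, a plexin that binds semaphorins, stood at -0.84 and -0.70 after the inhibitor, and without it -4.35 and -5.51 in untreated cells, -1.49 and -1.11 at 8 h and -1.09 and -0.50 at 10 h, with 1 of 2 untreated arrays above background. Efna5, a membrane-anchored ephrin ligand of Eph receptors, stood at 0.02 and 0.50 after the inhibitor, and without it -1.61 and -1.48 in untreated cells, 0.06 and 0.38 at 8 h and 0.11 and 0.74 at 10 h. The gap below its lowest array with 4OHT was 1.5. Sema3e, a secreted semaphorin, met the rise by the smallest margin of all members, with -2.32 and -1.35 after the inhibitor, -3.43 and -2.89 untreated, -2.42 and -1.59 at 8 h, -2.36 and -1.37 at 10 h. Replicates of Sema3e lay farther apart than inhibited and 10 h arrays within a replicate number did.

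Annexins, cytoskeletal and cell envelope genes were the largest role group, with 17 members. Anxa2, a calcium-dependent phospholipid-binding protein of the cell membrane, stood at 6.17 and 6.19 after the inhibitor, and without it 4.59 and 4.60 in untreated cells, 5.71 and 5.79 at 8 h and 6.14 and 6.30 at 10 h. The inhibited arrays lay between the arrays of 10 h and well above those of untreated cells, at 3-fold. Anxa1, a relative with the same kind of membrane binding, stood at 4.24 and 4.60 after the inhibitor, and without it 2.55 and 2.77 in untreated cells, 3.87 and 4.23 at 8 h and 4.36 and 4.85 at 10 h. It was 3.39-fold up with the inhibitor and 3.85-fold up at 10 h. Anxa7 had 4.17 and 4.14 with the inhibitor against 4.41 and 4.43 at 4OHT 10 h, with 2.65 and 2.63 in untreated cells, so it lay lower with the inhibitor in both replicate numbers, close to its limit. Second probes of Anxa1 and Anxa7 also met the whole rule.

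S100a4, a calcium-binding protein known as a mesenchymal marker, stood at 0.11 and -0.11 after the inhibitor, and without it -2.47 and -2.56 in untreated cells, -0.59 and -0.54 at 8 h and 0.0 and 0.01 at 10 h. Its second probe, with 1 of 2 untreated arrays above background, showed a rise of 4.22 and 5.37 at 10 h and differences of 0.09 and -0.11 with the inhibitor. Both probes placed S100a4 inside the band, with unequal sizes of rise. Lmna, which encodes the nuclear lamins A and C, stood at 4.94 and 4.69 after the inhibitor, and without it 3.52 and 2.85 in untreated cells, 4.74 and 4.47 at 8 h and 5.05 and 4.94 at 10 h. Its untreated level was 0.66 lower in replicate 2 than in replicate 1, a log2 difference of -0.66, and all arrays with 4OHT lay above both. Tmsb4x, which encodes the actin-sequestering thymosin beta 4, stood at 7.80 and 7.80 after the inhibitor, and without it 6.23 and 6.50 in untreated cells, 7.73 and 7.79 at 8 h and 8.03 and 8.07 at 10 h.

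Capg, an actin filament capping protein, lay nearest to the limit of the band, with 4.24 and 4.42 after the inhibitor, 3.12 and 3.03 untreated, 4.31 and 4.44 at 8 h, 4.53 and 4.72 at 10 h. All 4 values of Capg at 8 h and after the inhibitor lay below both of 10 h. Lor stood at 1.45 and 2.50 after the inhibitor, and without it -1.07 and -0.75 in untreated cells, 1.52 and 2.39 at 8 h and 1.5 and 2.60 at 10 h. Replicate 2 of Lor was higher than replicate 1 by 1.04 after the inhibitor, 0.32 untreated, 0.87 at 8 h and 1.1 at 10 h. Inf2, an actin-assembling formin, had 3.70 and 3.42 with the inhibitor against 3.74 and 3.60 at 4OHT 10 h. Phldb1, a protein of the cell cortex that helps anchor microtubules, had 4.29 and 4.06 with the inhibitor against 4.30 and 4.30 at 4OHT 10 h. Kif26b, a kinesin-like protein, was above background in no untreated array and had -3.45 and -3.77 with the inhibitor against -3.63 and -3.57 at 4OHT 10 h. Tchh, Plek2, Calml4 and Fam83h were also in this group.

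**Figure D3:**
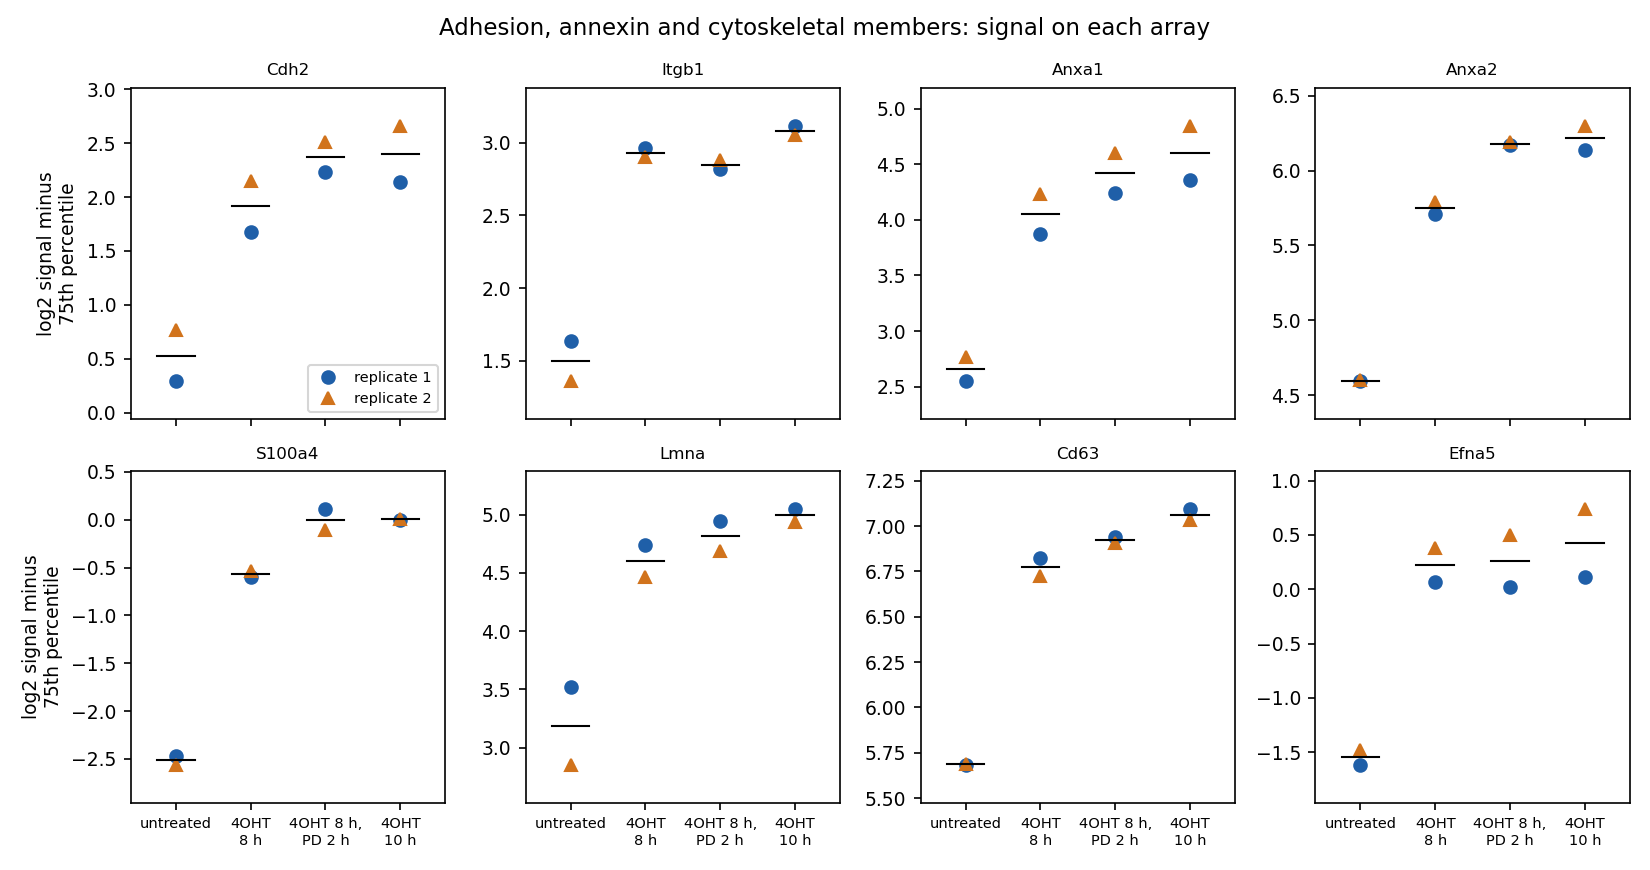
Log2 signal minus the array's 75th percentile on each of 8 arrays for Cdh2, Itgb1, Anxa1, Anxa2, S100a4, Lmna, Cd63 and Efna5. Points are single arrays, black bars are group means, and PD is the MEK inhibitor PD0325901. In all 8 panels both untreated arrays lie below all 6 arrays of cells given 4OHT.

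Matrix proteins, proteases and their inhibitors gave 9 members. Besides Loxl4 they held Serpinb1b, a serine protease inhibitor of the ovalbumin family, at -3.43 and -2.85 after the inhibitor, and without it -7.34 and -6.07 in untreated cells, -3.02 and -1.96 at 8 h and -3.67 and -2.57 at 10 h. No untreated array showed it above background, and its 10 h level was at least 3.24-fold higher. Ecm1 stood at 2.07 and 2.13 after the inhibitor, and without it 0.25 and 0.0 in untreated cells, 1.84 and 1.82 at 8 h and 1.83 and 1.95 at 10 h, lying above 4OHT 10 h with the inhibitor in both replicate numbers. A second Ecm1 probe gave -0.10 and 0.11 for that difference. Coch, which encodes the matrix protein cochlin, had -0.85 and -0.09 with the inhibitor against -1.07 and -0.29 at 4OHT 10 h, higher with the inhibitor in both. Adam8, a membrane metalloprotease, had 0.22 and 0.25 with the inhibitor against 0.09 and 0.48 at 4OHT 10 h, and Anpep, an aminopeptidase of the cell surface, had 2.75 and 2.61 with the inhibitor against 3.01 and 2.89 at 4OHT 10 h, lower in both. Aebp1, Ctsc and Adamts7 completed the group.

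Secreted signals gave 7 members. Wnt7b, a Wnt ligand, stood at -0.40 and -0.45 after the inhibitor, and without it -3.09 and -3.32 in untreated cells, -0.46 and -0.37 at 8 h and -0.67 and -0.32 at 10 h. Its level was 6.87-fold the untreated one with the inhibitor and 6.55-fold at 10 h, and all 6 arrays of cells given 4OHT lay within 0.35 log2 units. Wnt10a, a second Wnt ligand, had 0.39 and 0.19 with the inhibitor against 0.14 and 0.04 at 4OHT 10 h, higher with the inhibitor in both replicate numbers, and -1.99 and -1.45 untreated. Msmp, a small secreted protein of the microseminoprotein family, stood at -3.04 and -3.21 after the inhibitor, and without it -5.02 and -5.96 in untreated cells, -2.58 and -2.85 at 8 h and -2.81 and -3.01 at 10 h, with 1 of 2 untreated arrays above background. Bmp8b, a BMP ligand, had -0.17 and 0.04 with the inhibitor against -0.23 and 0.08 at 4OHT 10 h. Fgfbp1, which binds FGFs and releases them from the matrix, had 0.30 and 0.76 with the inhibitor against 0.35 and 0.97 at 4OHT 10 h. Tnfsf9, the ligand of the immune receptor 4-1BB, and Fgl1, a fibrinogen-like secreted protein, made up the rest.

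Intracellular signalling gave 10 members, with Baalc among them. Rasgrp3, an exchange factor that activates RAS and RAP proteins, stood at -1.58 and -1.69 after the inhibitor, and without it -4.08 and -3.94 in untreated cells, -1.75 and -1.73 at 8 h and -1.54 and -1.42 at 10 h. The largest difference between replicates of a group was 0.14. Fyn, a SRC-family kinase, had -0.87 and -0.94 with the inhibitor against -0.78 and -0.67 at 4OHT 10 h, and Vav1, a signalling protein best known in blood cells, had 0.70 and 0.44 with the inhibitor against 0.92 and 0.50 at 4OHT 10 h. A second Vav1 probe fell outside the band in replicate 1 (-0.37). Iqsec1, an exchange factor for ARF6, was among the 7 genes higher with the inhibitor in both replicate numbers, with 1.87 and 2.10 with the inhibitor against 1.77 and 2.06 at 4OHT 10 h. Rhobtb2, Niban1, Agap2, Pde6a and Bcl2l15 completed the group.

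Membrane proteins and transporters gave 10 members, with Slc35f1 first. Cavin1, which coats caveolae, stood at 6.53 and 6.40 after the inhibitor, and without it 4.21 and 3.50 in untreated cells, 6.43 and 6.37 at 8 h and 6.61 and 6.46 at 10 h. It was 6.12-fold up with the inhibitor and 6.43-fold up at 10 h, with the 6 arrays of cells given 4OHT within 0.24 log2 units of each other. A second, dimmer Cavin1 probe with 0 of 2 untreated arrays above background gave -0.04 and 0.40 for the inhibitor, outside the band in replicate 2. Cd63, a tetraspanin of late endosomes, stood at 6.94 and 6.91 after the inhibitor, and without it 5.68 and 5.69 in untreated cells, 6.82 and 6.72 at 8 h and 7.09 and 7.03 at 10 h. Its inhibited level lay below 10 h and above 8 h in both replicate numbers. Entpd3, an ectonucleotidase, Stom, Shisal1, Slc25a45, Emp3, Tmem179 and Aig1 completed the group.

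Transcription and chromatin proteins gave 11 members, and 0 of them were on the immediate early list. Hivep2, a large zinc finger protein, stood at -3.71 and -3.44 after the inhibitor, and without it -6.51 and -6.0 in untreated cells, -3.29 and -3.23 at 8 h and -3.55 and -3.45 at 10 h. No untreated array of Hivep2 was above background, and 10 h was at least 2.48-fold higher. Bach2, a leucine zipper repressor of the CNC family, stood at -1.12 and -0.95 after the inhibitor, and without it -4.51 and -3.87 in untreated cells, -2.05 and -1.74 at 8 h and -1.32 and -0.90 at 10 h. Another Bach2 probe, above background in no untreated array, lay 0.45 and 1.02 log2 units lower with the inhibitor than at 10 h (-0.45 and -1.02), so the 2 probes disagree on whether Bach2 kept its level. Zfp423, a zinc finger factor of BMP and retinoic acid responses, had 3.43 and 3.39 with the inhibitor against 3.47 and 3.44 at 4OHT 10 h. Its 2 other probes both met the rule as well, with inhibitor differences between -0.01 and 0.02. Maml3, a Notch coactivator, had -3.31 and -3.67 with the inhibitor against -3.48 and -3.38 at 4OHT 10 h, with 1 of 2 untreated arrays above background. Hic1, Bnc2, Bbx, Zmat4, Nap1l2, Rhox10 and Rbmy, an RNA-binding protein that was also counted here, completed the group.

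The ubiquitin and protein turnover group held 6 genes. Ube2dnl1 and Ube2dnl2, neighbouring genes on the X chromosome for E2 enzymes of the UBE2D kind, had 1.88 and 2.0 with the inhibitor against 1.96 and 2.06 at 4OHT 10 h, and -0.40 and -0.10 with the inhibitor against -0.19 and -0.02 at 4OHT 10 h. Rlim, an X-linked ubiquitin ligase that controls X inactivation, had -0.43 and -0.43 with the inhibitor against -0.35 and -0.29 at 4OHT 10 h. Nccrp1, Fbxo24 and Trim43b were the others. Metabolic and other enzymes gave 9 members. Qpct, which makes N-terminal pyroglutamate, had 1.97 and 1.82 with the inhibitor against 2.15 and 1.93 at 4OHT 10 h. Cyp11a1, which cleaves the cholesterol side chain, had -1.26 and -1.46 with the inhibitor against -1.03 and -1.43 at 4OHT 10 h. St8sia3 and B4galnt1 (ganglioside synthesis), Aadac, Irgm1, Oxct2a and Oxct2b were also in this group. Near-identical copies exist for Ube2dnl1, Ube2dnl2, Oxct2a, Oxct2b, Rbmy, Trim43b and Rhox10, so their probes may read more than 1 gene.

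The remaining 5 members have no role given here: 9130008F23Rik, Gm364, Fam181b, 1700042O10Rik and 9930014A18Rik. Of these, 1700042O10Rik and 9930014A18Rik were the only members that RefSeq lists as noncoding (2 of 91). The dimmest signals after the inhibitor belonged to the probes of 9930014A18Rik, with -4.23 and -3.67 with the inhibitor against -4.21 and -3.51 at 4OHT 10 h, and of Trim43b (-3.54 and -3.74 with the inhibitor against -3.39 and -3.45 at 4OHT 10 h), Kif26b, Hivep2 and Maml3. None of these 5 was above background on both untreated arrays. For 9930014A18Rik the bound on the rise at 10 h was at least 1.94-fold, and for Kif26b it was at least 2.31-fold. For Aadac it was at least 2.62-fold. Over all 91 members, both untreated arrays were above background for 72, 1 for 10 and 0 for 9.

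**Figure D4:**
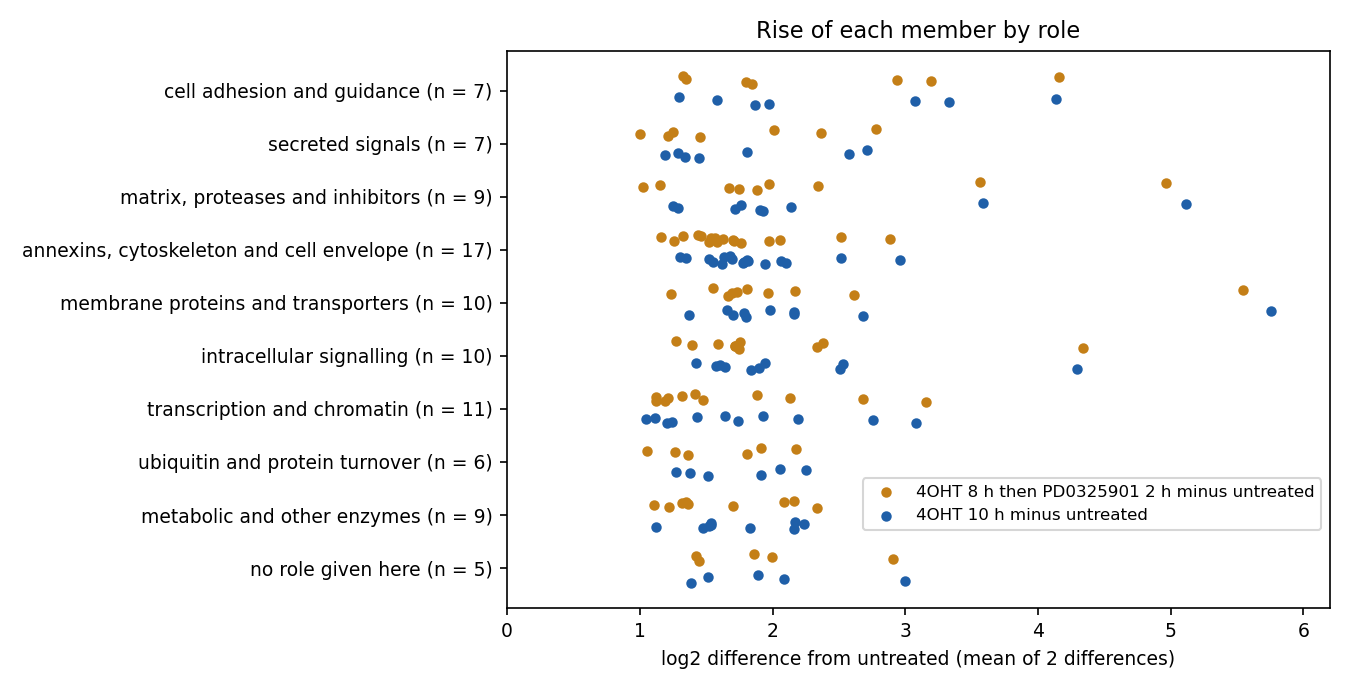
Log2 difference from untreated cells for each of the 91 members by role group, with the inhibited cells above (orange) and 4OHT 10 h below (blue), each a mean over 2 replicate numbers. In each group the 2 rows of points cover nearly the same range, which the rule fixes. The roles were assigned with the members known.

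The limits of the rule passed through a continuum. Just inside the rise limit of 1 lay Sema3e and Septin1 (smallest rise 1.01 each) and Nap1l2 (1.02), and just outside lay Ccnd2 (0.9995), Fmn2 (0.9949) and Emilin2 (0.9941). Just inside the 0.3 limit lay Capg (0.2985), Itgb1 (0.2978) and Hic1 (0.2937), and just outside lay Artn (0.3002), Naprt (0.3017) and Ppp1r9b (0.3032). Ccnd2, a cyclin of early G1, missed the rise limit at 10 h in replicate 1 alone, with 0.9995 there and 1.01 in replicate 2. Septin1, Msmp and Slc25a45 were among the members that met the rule under none of the other 3 scalings.

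The ERK target genes on the lists used here were not among the members. The rule leaves out any gene that differed by more than 0.3 with the inhibitor. Targets that fell quickly with MEK blocked could therefore not be members, and their absence is largely fixed by the rule. Of 22 feedback and ETV genes on the list, 12 met the rise conditions, 0 were members and 9 lay at least 1 lower with the inhibitor (Dusp1, Dusp2, Dusp4, Dusp5, Dusp6, Spry1, Spry2, Spred1 and Phlda1). Etv4, an ETS factor, lay at -0.31 and -0.30, just outside the band. Of 13 induced immediate early genes 0 were members and 11 were lowered, among them Fos, at -4.01 and -4.69, and Fosl1, at -2.45 and -2.82. Fosl1 and Fos encode partners in the AP-1 dimer named above. Of 7 induced ligand and protease genes of the pathway 0 were members and 5 were lowered. The 4 induced LIF and STAT3 targets and the 4 induced formative epiblast genes were all lowered. Of these, Junb and Ier3 were also counted among the immediate early genes, and Dusp6 among the feedback genes. Against these counts stand the 15.5% members and 22.1% lowered among all 588 induced genes.

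Members on other lists were few. Of 8 induced genes of cadherins, EMT and mesenchyme, 3 were members (Cdh2, S100a4 and Anxa1) and 2 were lowered (Twist1 and Msx1, transcription factors of mesenchyme). S100a6, a relative of S100a4, rose by 3.63 and 3.98 at 10 h and lay just outside the band, at -0.28 and -0.39. Of 4 induced retinoic acid genes, 2 were lowered: Cyp26a1, which degrades retinoic acid, and Aldh1a3, which makes it. Of 5 induced receptor tyrosine kinase and ligand genes, 1 was a member (Efna5) and 2 were lowered (Fgfr4 and Epha2). Of 7 induced trophoblast genes 0 were members and 2 were lowered. The primitive endoderm, cell cycle, ribosome biogenesis and glycolysis lists held 0 induced genes. In all, 5 of the 91 members stood on any of the 28 lists.

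Between 8 h and 10 h of 4OHT a group of members stood higher at the later time, with the inhibitor and without it. A difference of over 0.3 upwards in both replicate numbers was seen for 26 members, and 15 of these also stood over 0.3 above 8 h after the inhibitor in both. The first share was 28.6% of the members, near the 25% of all 588 induced genes (147) and above the 3.24% of all 13161 genes (426). The second condition held as well for 37 of the 588 and 217 of the 13161, and the band of the rule favours it among members. A difference of over 0.3 downwards was seen for 3 (Trim43b, Serpinb1b and Shisal1), and 45 stayed within 0.3 in both. These arrays also chose the members, through each group's distance from untreated cells, and the 2 changes share the 8 h arrays. With the inhibitor Baalc stood 1.03 and 0.93 above 8 h, and at 10 h without it 0.85 and 1.01 above 8 h. Bach2 stood 0.93 and 0.79 above 8 h with the inhibitor, and 0.73 and 0.84 without it. On the probes of the rule both genes lay above the 8 h level with MEK inhibited and without. The other Bach2 probe did not show this with the inhibitor. It rose by 3.54 and 2.0 at 8 h and by 3.77 and 2.25 at 10 h. With the inhibitor that probe lay below its 10 h level (-0.45 and -1.02), and below its 8 h level too. S100a4 stood 0.70 and 0.43 above 8 h with the inhibitor, and 0.60 and 0.55 without it. Cdh2 stood 0.56 and 0.36 above 8 h with it, and 0.46 and 0.51 without. Anxa2 stood 0.46 and 0.40 above 8 h with it, and 0.43 and 0.51 without. With the inhibited arrays held within 0.3 of 10 h by the rule, genes this far above 8 h at 10 h had to lie above 8 h with the inhibitor too.

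In the limma fit of 4OHT 10 h minus 4OHT 8 h, 0 of 22692 genes and features (0%) passed an adjusted p of 0.05 and 0 of 91 members did, the smallest adjusted p being 0.268 over all and 0.501 among the members. At an unadjusted p under 0.05, 20 members (22.0%) were higher at 10 h against 3.16% of all tested, and 1 was lower against 3.46%. The same share was 18.4% among the 588 induced genes and 19.2% among the 130 lowered ones, so it does not set the members apart. The largest differences were 0.93 ± 0.35 (SE) for Baalc (adjusted p = 0.741), 0.78 ± 0.26 for Bach2 (0.735) and 0.77 ± 0.34 for 9130008F23Rik (0.773). Downwards they were -1.08 ± 0.52 for Rbmy (0.793), -0.68 ± 0.49 for Stom (0.862) and -0.68 ± 0.19 for Trim43b (0.627). Leaving out 1 array moved Baalc to between 0.56 (without 4OHT 10 h replicate 2) and 1.3 (without 4OHT 10 h replicate 1), and 9130008F23Rik to 0.45 and 1.09 without the same arrays. Rbmy and Stom each rested on replicate 2 at 8 h. Stom, a membrane protein of the stomatin family, had 0.45 and 0.46 after the inhibitor, -1.16 and -1.54 untreated, 0.52 and 2.10 at 8 h, 0.65 and 0.60 at 10 h. Without that array its difference was 0.11. Rbmy, of a Y-linked family of RNA-binding proteins, had -2.68 and -0.95 at 8 h, and -0.21 for the difference without that array.

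**Figure D5:**
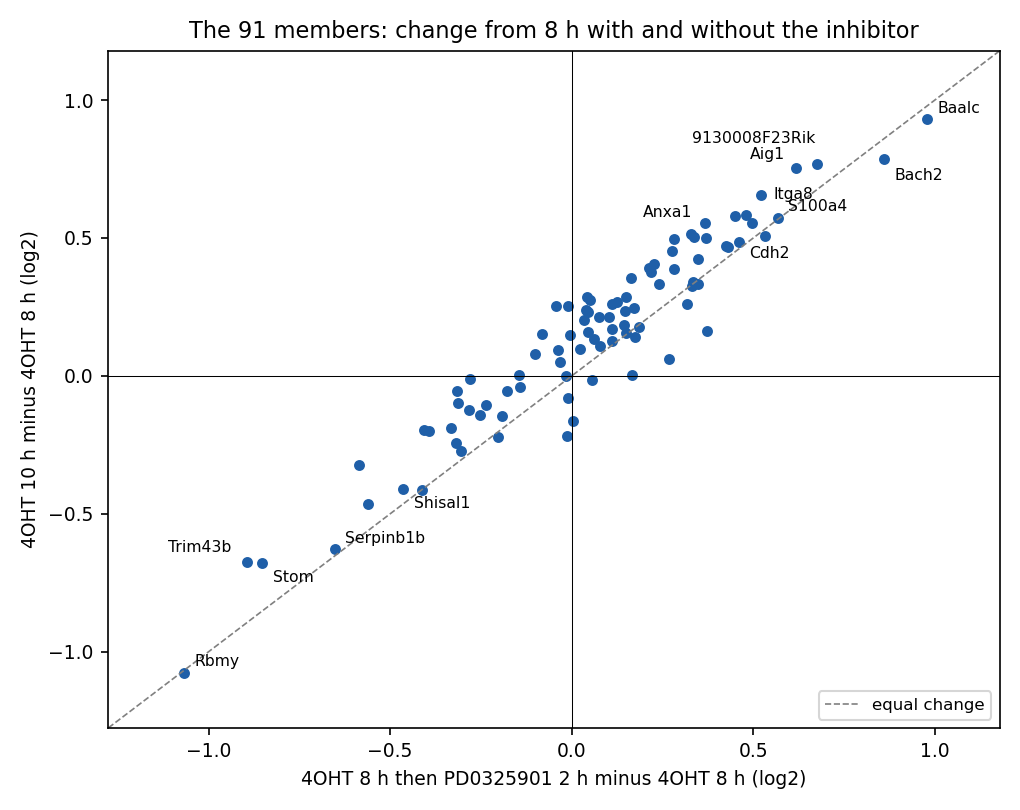
For each of the 91 members, the change from 4OHT 8 h to the inhibited cells (horizontal, log2) and to 4OHT 10 h (vertical, log2), as means over 2 replicate numbers, with a dashed line of equal change. Both axes share the 8 h arrays and the rule holds the points within 0.3 of the line, so only the spread along it is free, and it runs from -1.08 for Rbmy to 0.93 for Baalc on the vertical axis.

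The rule set no threshold on the level difference between the replicate numbers. It did limit how far the inhibitor difference could vary between them, which is part of the spread this test uses, so the members' share of calls is not independent of how they were chosen. With a mean per group and the replicate number in the limma fit, 27 of 91 members (29.7%) differed at an adjusted p under 0.05, against 1473 of 22693 genes and features tested (6.49%). Among all 588 induced genes 121 did (20.6%), and among the lowered genes 23 of 130 (17.7%). Replicate 1 was lower for 20 of the 27 and higher for 7, against 69 lower and 52 higher among the induced genes called, and 746 lower and 727 higher among all called. Aadac, an esterase of the endoplasmic reticulum, differed by -1.38 ± 0.06 (SE, adjusted p = 0.00602), with -3.92 and -2.59 after the inhibitor, -6.21 and -4.97 untreated, -4.0 and -2.52 at 8 h, -4.14 and -2.71 at 10 h. Bcl2l15, a BCL2 family protein, differed by -1.34 ± 0.05 (0.00555), with -2.22 and -0.88 after the inhibitor, -4.53 and -3.25 untreated, -2.52 and -1.25 at 8 h, -2.11 and -0.65 at 10 h. In both genes replicate 2 was higher in all 4 groups by nearly the same amount, so the rise with 4OHT was alike in the replicate numbers while the level was not.

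St8sia3, a sialyltransferase, differed by -1.27 ± 0.11 (adjusted p = 0.0139 in limma), with -2.85 and -1.89 after the inhibitor, -5.22 and -3.85 untreated, -2.73 and -1.19 at 8 h, -2.97 and -1.76 at 10 h. Serpinb1b differed by -1.0 ± 0.12 (0.0247). Entpd3 went the other way, at 0.86 (adjusted p = 0.00772). Leaving out any 1 array, which removes its group from this contrast, left 0 to 6 members and 3 to 321 genes called. The replicate number is also the row of the slide, so culture and slide position cannot be told apart.

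Other probes of the member genes, which the rule did not use, gave a partial repeat. Of 34 such probes in 31 genes, 22 in 21 genes were above background in all 3 groups given 4OHT. The rise conditions were met by 18 of the 22 and the whole rule by 12 (54.5%), against 24 of 128 (18.8%) for other probes of all induced genes and 35 of 3891 (0.900%) for those of all named genes. The inhibitor band alone held 63.6% of the members' other probes, 28.1% of those of induced genes and 62.9% of those of all named genes, so the low last share comes from the rise conditions. Genes whose second probe met the rule were Aig1, Anxa1, Anxa7, Cdh2, Ecm1, Fgl1, Irgm1, Loxl4, S100a4, Tmem179 and Zfp423 (2 probes). For Loxl4 the second probe rose by 4.42 and 4.93 at 10 h and lay at -0.01 and -0.21 with the inhibitor. Those that did not were Bach2, Bbx, Cavin1, Itgb1, Oxct2b, Plxnc1, Rbmy, Septin1, Specc1 and Vav1. The second Rbmy probe stood 0.78 and 0.04 above untreated cells at 10 h, below the limit of 1 in both replicate numbers, and that of Bach2 is given above. Probes of 1 gene share its RNA sample and are not replicates.

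Some members lay next to each other in the genome. Such pairs were not counted among the other induced genes or all named genes, so they are listed without a comparison. In RefSeq's order, no other coding gene lay between Aig1 and Hivep2, Tmem179 and Inf2, Bmp8b and Oxct2b, or Ube2dnl1 and Ube2dnl2, and 1 lay between Agap2 and B4galnt1. On the X chromosome lay 7 of the 91 members (7.69%), among them Nap1l2, Rlim, Tmsb4x and the Ube2dnl pair. The share was 0.769% for the lowered genes, 3.57% for the 588 induced genes and 3.97% for all named genes. The gene body was longer in members than in lowered genes, with medians of 21790 and 8582 bases, while the 588 induced genes had 19840 and all named genes 17690. These are descriptions of the lists, with no test.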

How the data were processed

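RNA of 8 mouse embryonic stem cell samples was measured, 1 array each. The deposited processed signal is an intensity from Feature Extraction 11.0.1.1 (Agilent), corrected for background and spatial trend within an array only, per the file headers. Beside it the deposited files hold a median signal and a median background per spot (intensity) and marks of 0 or 1. The deposited value table holds the same intensity rounded to 3 digits (largest difference 0.497%), linear and not centred, with medians of 22.4 and 23.9 for the inhibited arrays, 29.9 and 27.9 untreated, 23.5 and 26.5 at 8 h, and 21.6 and 23.7 at 10 h. Per the labels, 100 ng of RNA was labelled. The labels name Cy5 and the files a green channel, which changes no direction with 1 channel per array.

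Here its log2 was taken relative to the 75th percentile of the array's 59305 non-control spots, with outlier spots left out and spots of a probe averaged (Python 3.11.15, numpy 2.4.6, pandas 2.3.3, matplotlib 3.10.9, and data.table (1.17.8) for reading in R). Symbols came by accession from RefSeq's genes of GRCm38.p6: of 55681 probes, 27656 had 1 symbol, 0 had several and 28025 had none. The array design uses another build, mm9, so positions are given only for promoters. Each gene was represented by its probe with the highest mean. A lower bound on a fold sets the bright group's mean against the untreated mean of the higher of the lowest signal well above background and the probe's own.

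The tests are two-sided moderated tests in limma 3.58.1 (R 4.3.3), Benjamini-Hochberg adjusted over all genes and features kept (30336 probes; 22693 genes and unnamed features, of which 1 had no fitted value for 10 h minus 8 h), and checked on simulated data. Each group had 2 arrays, which limits the precision, and a p-value covers the spread among these arrays alone, part of which may be technical. The members, the 28 gene lists and the roles were chosen with earlier results of these data known. Genes given in detail were the 12 with the largest smallest rise, members on a list, those nearest the rule's limits, the 3 largest differences each way between 10 h and 8 h, the 4 largest between replicate numbers, the 5 brightest and 5 dimmest probes after the inhibitor and 6 lowered genes, some of them as differences only. Other genes were named after their values were seen. Protein sequences were not used here. Values are given for part of the members.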

Additional observations from a re-analysis of the deposited data

How the results depend on the processing

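The number of members was 91. It was 88 with median centring (60 of them among the 91), 120 with quantile normalisation (84), 74 after normexp on the median signal and its background with quantile normalisation (44), 91 from the deposited value table (90), and 95 with no background requirement (91). It moved to 45 with a band of 0.2, 204 with 0.5, 228 with a rise of 0.58, 17 with a rise of 2 and 183 with the rule on group means. Left to a single replicate number, the rule gave 169 to 214 genes. For 4OHT 10 h minus 4OHT 8 h, 0 genes and 0 members were called under each alternative that kept all arrays, the replicate block included, and leaving out 1 array gave 0 to 4 genes and 0 to 0 members. Of the 6 differences named there, Rbmy ran from -1.94 to -0.21 and Stom reversed, from -1.47 to 0.11 over the arrays left out in turn (0.11 without 4OHT 8 h replicate 2). After normexp Baalc, Bach2, 9130008F23Rik, Rbmy and Trim43b had smaller differences, at 0.56, 0.53, 0.47, -0.46 and -0.21. Stom had a larger one, at -0.77. The labels do not say what a replicate number shares between groups, so it was not taken as a pairing. Deviations of same-numbered arrays correlated at 0.287 to 0.358 in all 6 pairs of groups, a hint from the data, and the number is also the row of the slide. With the replicate block the adjusted p of Baalc was 0.18 and that of Trim43b 0.196. Between the replicate numbers 1473 genes and 27 members were called. The genes were 2403 after normexp, 6202 without the filter for dim probes and 2760 with limma's trend and robust options, and 23 to 37 members were called under alternatives that kept all arrays. Leaving out 1 array gave 3 to 321 genes and 0 to 6 members, with fewer arrays and fewer degrees of freedom. The cause of the other shifts was not tested. After normexp the differences between replicate numbers shrank to -0.33 for Aadac, -0.72 for Bcl2l15, -0.47 for St8sia3 and -0.25 for Serpinb1b. Serpinb1b was then not called. Arrays give few dim genes a measured untreated level: 9 members had only a bound.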

Other observations

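Besides the named genes, 20 of 28025 array features without a symbol met the same rule. They carry no gene name here and are counted only.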
